A study of Mus musculus with 4 samples.

Results

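Gene desert peaks are the H3K36me2 regions that lay 200 kb or more from every protein-coding gene body, measured edge to edge on the GRCm38 RefSeq gene table. There were 1206 of them among 7699 peaks in mesenchymal stem cells (MSCs) given melatonin and 1681 among 8361 peaks in untreated MSCs, which is 2887 of 16060 peaks in all. Position alone chose them, so tag counts, folds and overlap between the libraries played no part in the choice. The cells came from mouse bone marrow and were cultured in medium with serum, and the study's design text speaks of old donors. One group received 1 µM melatonin for 24 hours, and the group it is set against was untreated. Each group had 1 chromatin immunoprecipitation (ChIP) library against histone H3 dimethylated at lysine K36 (H3K36me2) and 1 input library without antibody. Strain, genotype, sex, exact age and the number of animals are not given in the labels. With 1 ChIP library per condition no test between conditions is possible, and no difference below has a replicate behind it.

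H3K36me2 is laid down by the NSD family of methyltransferases and by ASH1L. In mammalian cells it marks broad stretches of active genes and of the sequence between genes, where it recruits the DNA methyltransferase DNMT3A and hinders Polycomb from methylating the same histone tail at K27. Gene deserts are long stretches without protein-coding genes. Some lie beside developmental regulators and hold distant enhancers for them, while others are AT-rich, late-replicating and attached to the nuclear lamina. A peak list holds no RNA values, so the MSC identity given in the labels could not be checked against marker genes.

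The sequences shown are promoter windows from RefSeq (GRCm38.p6), since they are the only desert sequence at hand that peaks covered. Each window runs from 250 bases before to 50 bases after a gene's start. Of 1047 windows inside deserts, desert peaks touched 12 (1.15%), 7 of them with melatonin and 5 without. By the choice of deserts, none is the window of a protein-coding gene. Below are 4 from deserts described later, 5′ to 3′ on the gene's strand, with the bases inside the peak in capitals. Gm40176 at chr3:148081098-148081397 (plus strand) and Gm35615 at chr13:6289377-6289676 (minus strand) were touched by melatonin peaks. Gm31202 at chr10:37364312-37364611 and Gm41259 at chr15:6044655-6044954 (both minus strand) were touched by untreated peaks.
Gm40176: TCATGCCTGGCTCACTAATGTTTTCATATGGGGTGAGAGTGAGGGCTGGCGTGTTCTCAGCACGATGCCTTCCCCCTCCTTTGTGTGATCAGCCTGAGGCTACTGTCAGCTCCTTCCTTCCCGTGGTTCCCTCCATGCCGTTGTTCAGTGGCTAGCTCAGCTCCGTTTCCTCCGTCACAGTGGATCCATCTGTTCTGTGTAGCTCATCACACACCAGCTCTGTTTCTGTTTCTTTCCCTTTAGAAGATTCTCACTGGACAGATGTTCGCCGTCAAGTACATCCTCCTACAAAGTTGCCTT
Gm35615: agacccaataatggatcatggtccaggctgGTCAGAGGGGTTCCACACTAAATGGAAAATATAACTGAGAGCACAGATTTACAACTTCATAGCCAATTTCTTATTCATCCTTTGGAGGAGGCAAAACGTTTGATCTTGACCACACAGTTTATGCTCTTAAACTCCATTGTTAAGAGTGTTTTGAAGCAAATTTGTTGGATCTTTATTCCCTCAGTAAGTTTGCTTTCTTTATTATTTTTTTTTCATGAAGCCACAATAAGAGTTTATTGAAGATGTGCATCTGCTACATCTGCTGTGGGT
Gm31202: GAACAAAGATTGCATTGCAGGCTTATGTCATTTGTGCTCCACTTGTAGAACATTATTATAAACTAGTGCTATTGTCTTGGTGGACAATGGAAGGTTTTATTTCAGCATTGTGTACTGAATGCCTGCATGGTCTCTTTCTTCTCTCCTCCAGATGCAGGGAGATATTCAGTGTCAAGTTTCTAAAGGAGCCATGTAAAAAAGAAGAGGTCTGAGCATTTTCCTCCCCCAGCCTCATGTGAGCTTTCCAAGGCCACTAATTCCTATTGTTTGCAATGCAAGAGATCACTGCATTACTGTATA
Gm41259: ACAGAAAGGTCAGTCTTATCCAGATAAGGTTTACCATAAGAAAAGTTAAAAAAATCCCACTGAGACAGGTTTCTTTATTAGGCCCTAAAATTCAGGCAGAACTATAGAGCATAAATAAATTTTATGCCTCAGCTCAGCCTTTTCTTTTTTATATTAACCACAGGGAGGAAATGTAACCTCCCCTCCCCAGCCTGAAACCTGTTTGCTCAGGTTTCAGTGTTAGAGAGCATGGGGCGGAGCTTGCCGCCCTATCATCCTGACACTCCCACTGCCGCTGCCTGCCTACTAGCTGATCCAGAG

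CpG dinucleotides were few in 3 of these 4 windows. Gm40176, between Ttll7 and Adgrl2, has 51.7% G and C and 8 CpG. Gm35615, between Klf6 and Pitrm1, has 37.3% G and C and 1 CpG, and Gm31202, beside Marcks, has 41% and 0 CpG. Gm41259, between Ptger4 and Dab2, has 44.7% and 3 CpG. Over the 12 windows the medians were 44.7% and 1 CpG, near the 44% and 2 CpG of all desert windows and under the 52.7% and 7 CpG of all 32851 windows in the table. The untreated peak over Gm31202 had a fold over input of 4.06, and a melatonin peak with a fold of 20 overlapped it by 83 bp, outside the window. None of the 46 miRNA hairpins inside deserts was overlapped by a desert peak. Desert peaks covered only 1315 kb with melatonin and 1848 kb without, of 516.5 Mb of desert sequence. The count of 0 therefore does not show that peaks avoid hairpins. The nearest hairpin, Mir6390 on chromosome 14, lay 1.65 kb from a melatonin peak.

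Desert peaks were sparser with melatonin than without. Between the first and last protein-coding gene of each chromosome, 809 stretches of sequence lay 200 kb or more from any protein-coding gene, and together they spanned 516.5 Mb. They held 2.33 melatonin peaks per Mb (95% exact Poisson interval 2.21 to 2.47) and 3.25 untreated peaks per Mb (3.1 to 3.41). The other sequence outside genes held 4.02 melatonin and 4.12 untreated peaks per Mb, and gene bodies held 2.19 melatonin and 2.27 untreated peaks per Mb. Desert peaks made up 15.7% of the melatonin list (exact binomial interval 14.9 to 16.5) and 20.1% of the untreated list (19.3 to 21). All intervals here cover counting error only. They are too narrow, because peaks clustered and reads had no molecular identifiers.

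Density changed with distance from genes in both libraries. It was highest from 10 to 200 kb, at 4.13 to 4.49 melatonin peaks and 4.39 to 4.72 untreated peaks per Mb. At 200 to 300 kb it was 3.36 with melatonin (3.05 to 3.68) and 4.39 without (4.04 to 4.76), so the untreated density was still at the level of nearer sequence and the melatonin density was below its own. At 300 to 500 kb it was 2.84 with melatonin (2.58 to 3.12) and 4 without (3.69 to 4.33). Beyond 1000 kb it was 0.879 with melatonin (0.678 to 1.12) and 1.62 without (1.34 to 1.94). Assembly gaps were not subtracted.

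**Figure D1:**
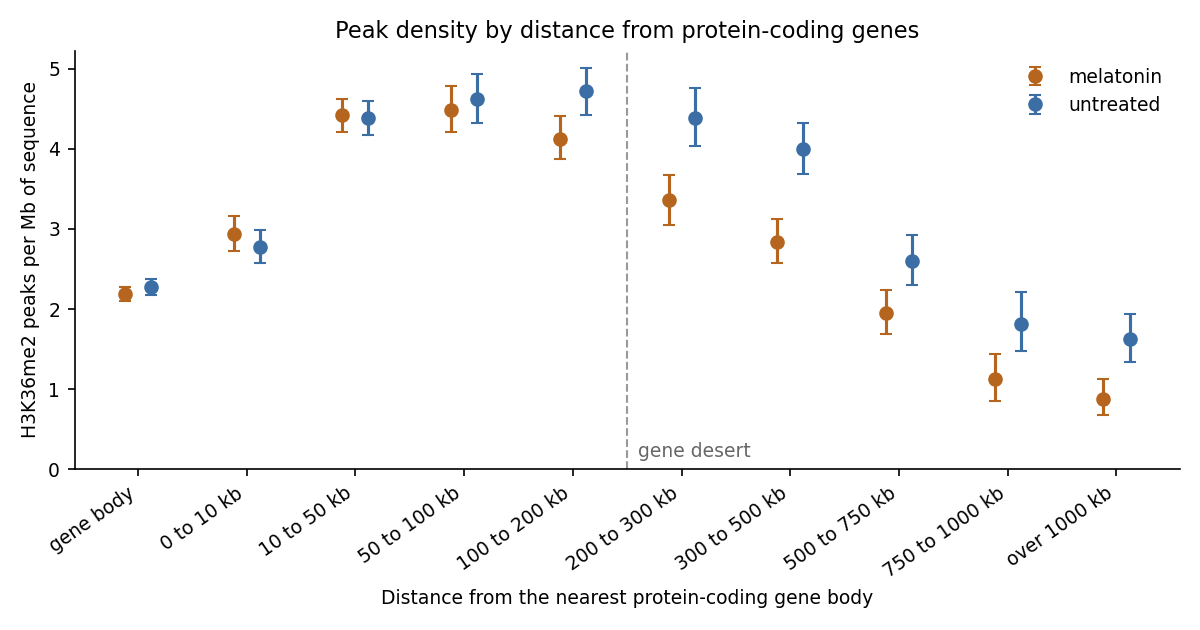
H3K36me2 peaks per Mb of sequence (y axis) in classes of distance from the nearest protein-coding gene body (x axis), for the melatonin and untreated libraries; points are densities and bars are 95% exact Poisson intervals. The libraries run together up to 100 kb and part from 100 to 200 kb on, which is still outside deserts. Melatonin has 4.13 and untreated 4.72 peaks per Mb there, against 3.36 and 4.39 at 200 to 300 kb.

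The ratio of melatonin to untreated peak counts was near 1 close to genes and lowest far from them. It was 0.965 in gene bodies (exact interval 0.91 to 1.02), 1.06 within 10 kb (0.953 to 1.18) and 1.01 at 10 to 50 kb (0.939 to 1.08). It was 0.875 at 100 to 200 kb (0.8 to 0.958), 0.764 at 200 to 300 kb (0.674 to 0.866) and 0.709 at 300 to 500 kb (0.626 to 0.803). Farther out it was 0.749 at 500 to 750 kb (0.62 to 0.903), 0.619 at 750 to 1000 kb (0.441 to 0.862) and 0.542 beyond 1000 kb (0.394 to 0.739), where 65 melatonin and 120 untreated peaks lay. The intervals of neighbouring desert classes overlap, so the order among them is not resolved. Over all deserts the ratio was 0.717 (0.666 to 0.773), against 0.972 (0.939 to 1.01) over the other 6493 melatonin and 6680 untreated peaks, a quotient of 0.738.

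**Figure D2:**
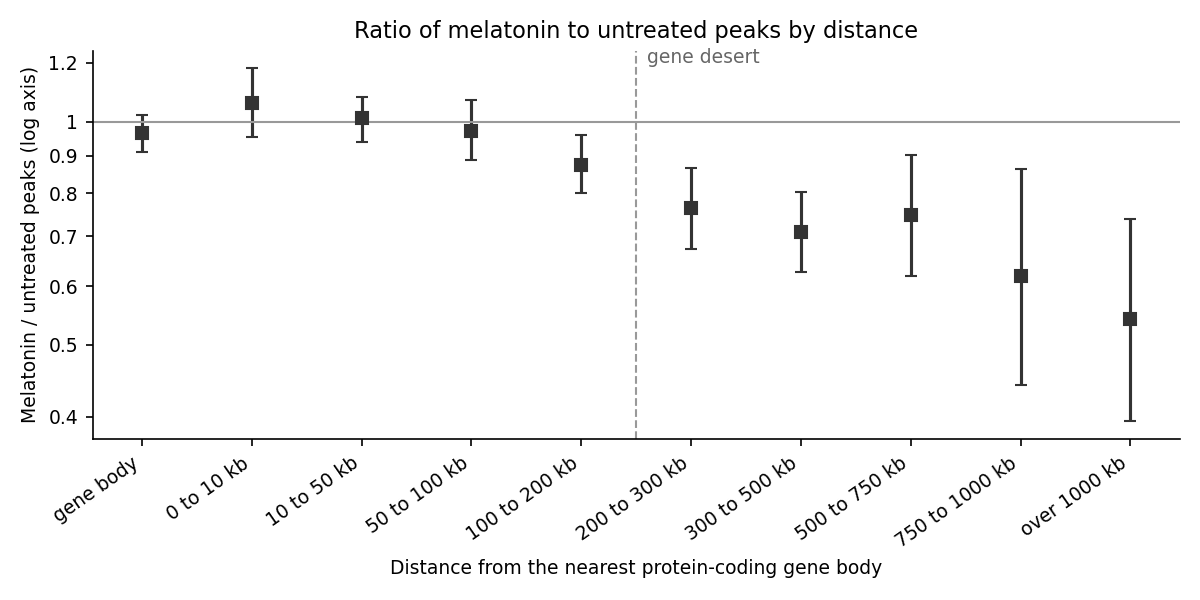
Ratio of melatonin to untreated peak counts (y axis, log scale) by distance from the nearest protein-coding gene body (x axis); squares are ratios and bars are 95% exact intervals from the counts. The ratio is close to 1 up to 100 kb, 0.875 at 100 to 200 kb, 0.764 at 200 to 300 kb and 0.542 beyond 1000 kb.

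The libraries also differed in depth and threshold, whose part in the ratio was not tested. The melatonin library held 14180076.5 tags, with a threshold of 18 tags per window, and the untreated library held 13198427.5, with a threshold of 17. Among peaks with a fold over input of 6 or more, the desert ratio was 0.956 (0.829 to 1.1) and the ratio elsewhere 1.2 (1.12 to 1.28). Among peaks with at least 14 tags per 10000000, a limit chosen after seeing the data, the desert ratio was 0.579 (0.515 to 0.649) and the ratio elsewhere 0.819 (0.777 to 0.863). The desert ratio thus moved on both sides of its value, while its quotient with the ratio elsewhere was below 1 in 11 of 11 alternatives, between 0.625 and 0.798. These alternatives all reuse the same pair of peak lists, so they are not independent of each other or of the main value.

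Most deserts with several peaks had fewer with melatonin. Of 155 deserts with 4 or more peaks over both lists, 28 had more melatonin peaks, 103 had more untreated peaks and 24 had equal numbers. By chromosome, the desert ratio was below the ratio of the other peaks on 15 of 20, and on 12 of the 13 with 40 or more untreated desert peaks. It was 0.633 on chromosome 13 (155 melatonin and 245 untreated desert peaks) and 0.748 on chromosome 10 (184 melatonin and 246 untreated). On chromosomes 9 and 11 the desert ratio was 0.5 and 0.462, while the other peaks there had ratios of 1.06 and 1.16. Chromosome 12 was the exception among the 13, at 0.975 in deserts (39 melatonin and 40 untreated peaks) against 0.951 elsewhere. The desert ratio was above 1 on chromosomes 6, 7, 19 and X, each with at most 24 desert peaks in a list.

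Desert peaks were spread unevenly over chromosomes. Chromosome 13 had 7.18 melatonin and 11.3 untreated peaks per Mb of desert, chromosome 10 had 8.35 melatonin and 11.2 untreated, and chromosome 2 had 6.21 melatonin and 7.58 untreated. Chromosome 7 had 0.218 melatonin and 0.0544 untreated, and X had 0.213 melatonin and 0.187 untreated. Desert peaks were the largest share of a chromosome's list on chromosome 15 in the untreated library, at 33.1%, where they made up 27.4% of the melatonin list.

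The peaks gathered in few deserts. Melatonin peaks were present in 245 of 809 deserts (30.3%) and untreated peaks in 272 (33.6%). Both lists had a peak in 198 deserts, the melatonin list alone in 47, the untreated list alone in 74, and neither in 490. The richest 28 deserts held 50% of the melatonin desert peaks and the richest 32 held 50% of the untreated ones. Across the 499 deserts of at least 0.25 Mb, melatonin and untreated peaks per Mb gave Pearson's r = 0.9 and Spearman's rho = 0.8, as a description, and neighbouring deserts share their chromosome and surroundings.

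The 12 deserts with most peaks covered 14.8 Mb, or 2.86% of desert sequence. They held 390 melatonin peaks (32.3%) and 514 untreated peaks (30.6%). They were picked by these counts, so the counts are a description. Their ratio of melatonin to untreated was 0.759 (0.663 to 0.867), and that of the other 797 deserts was 0.699 (0.639 to 0.765), so the shortfall was as large without the richest deserts.

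The richest desert lay on chromosome 10 between Nmbr, which encodes the neuromedin B receptor, and Cited2, a transcriptional co-regulator that binds CBP and p300. Its 2.55 Mb (14971458 to 17523228) held 66 melatonin and 111 untreated peaks, or 25.9 melatonin and 43.5 untreated per Mb, a ratio of 0.595 (0.432 to 0.814). The peaks lay toward Cited2. In the 4 windows of 200 kb from 200 to 1000 kb beyond Nmbr there were 0, 2, 1 and 1 melatonin peaks and 2, 4, 4 and 4 untreated peaks. The window from 1800 to 2000 kb held 10 melatonin and 17 untreated peaks, the most of any window of this desert in each list.

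The next lay on chromosome 2 between Zeb2, a zinc finger repressor known for its part in the epithelial to mesenchymal transition, and Acvr2a, an activin type II receptor gene. Its 3.3 Mb (45317442 to 48614109) held 80 melatonin and 84 untreated peaks, a ratio of 0.952 (0.692 to 1.31). The counts were nearly equal, but the interval also includes the 0.717 of all deserts. This desert is thus not set apart from the others. In the 3 windows nearest Zeb2, from 200 to 800 kb, there were 12, 12 and 16 melatonin peaks and 7, 10 and 10 untreated peaks. The middle was almost empty in both libraries: in the 6 windows from 1600 to 2800 kb no window had more than 1 melatonin or 2 untreated peaks. Peaks returned toward Acvr2a, with 5 and 4 melatonin peaks and 6 and 4 untreated peaks in the windows from 3200 to 3600 kb.

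The next lay on chromosome 15 between Myc, which encodes a growth-promoting transcription factor, and Gsdmc, a gasdermin gene. Its 1.39 Mb (62190361 to 63575971) held 58 melatonin and 81 untreated peaks, or 41.9 melatonin and 58.5 untreated per Mb, a ratio of 0.716 (0.502 to 1.02). The desert on the other side of Myc, toward A1bg, held 15 melatonin and 21 untreated peaks in 0.664 Mb. On chromosome 13, Akr1e1, an aldo-keto reductase gene, and Klf6, a zinc finger transcription factor gene, flanked a desert of 0.852 Mb (4809164 to 5661489). It held 31 melatonin and 55 untreated peaks, a ratio of 0.564 (0.351 to 0.891), and a single window from 600 to 800 kb beyond Akr1e1 had 7 melatonin and 22 untreated peaks. Across Klf6, the desert toward Pitrm1 held 14 peaks in each library.

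**Figure D3:**
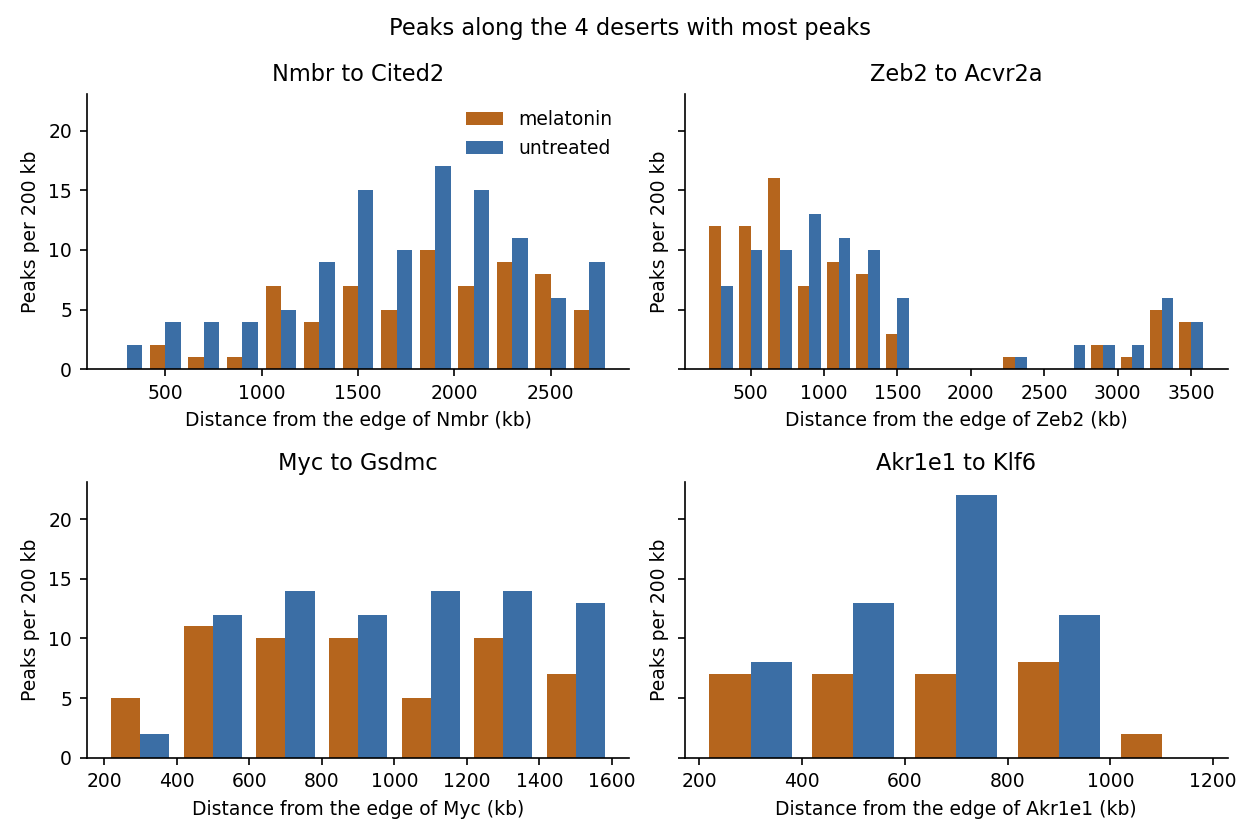
Peaks per window of 200 kb (y axis) along the 4 deserts with most peaks, by distance from the edge of the left flanking gene in kb (x axis), for melatonin and untreated. The Zeb2 to Acvr2a desert has an almost empty middle in both libraries, and the Nmbr to Cited2 desert fills toward Cited2. The last window of each panel may be cut short by the desert's end.

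The other 7 deserts of this group held 39 to 49 peaks over both lists, and in none did the interval of the ratio leave out 1, so the counts do not separate the libraries. Marcks, which encodes an actin-binding substrate of protein kinase C, and Rfpl4b flanked one with 25 melatonin and 24 untreated peaks. Gja1, the connexin 43 gene, and Hsf2, a heat shock factor gene, flanked one with 21 melatonin and 23 untreated. Ttll7 and Adgrl2, a latrophilin gene, flanked one with 19 melatonin and 24 untreated. Ptger4, a prostaglandin E2 receptor gene, and Dab2, an endocytic adaptor gene, flanked one with 19 melatonin and 22 untreated. Pik3r1, which encodes the p85 subunit of PI3 kinase, and Cd180 flanked one with 20 in each library. Mmadhc and Rnd3 flanked one with 16 melatonin and 23 untreated, and Zfp608 and Gramd3 one with 20 melatonin and 26 untreated.

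**Figure D4:**
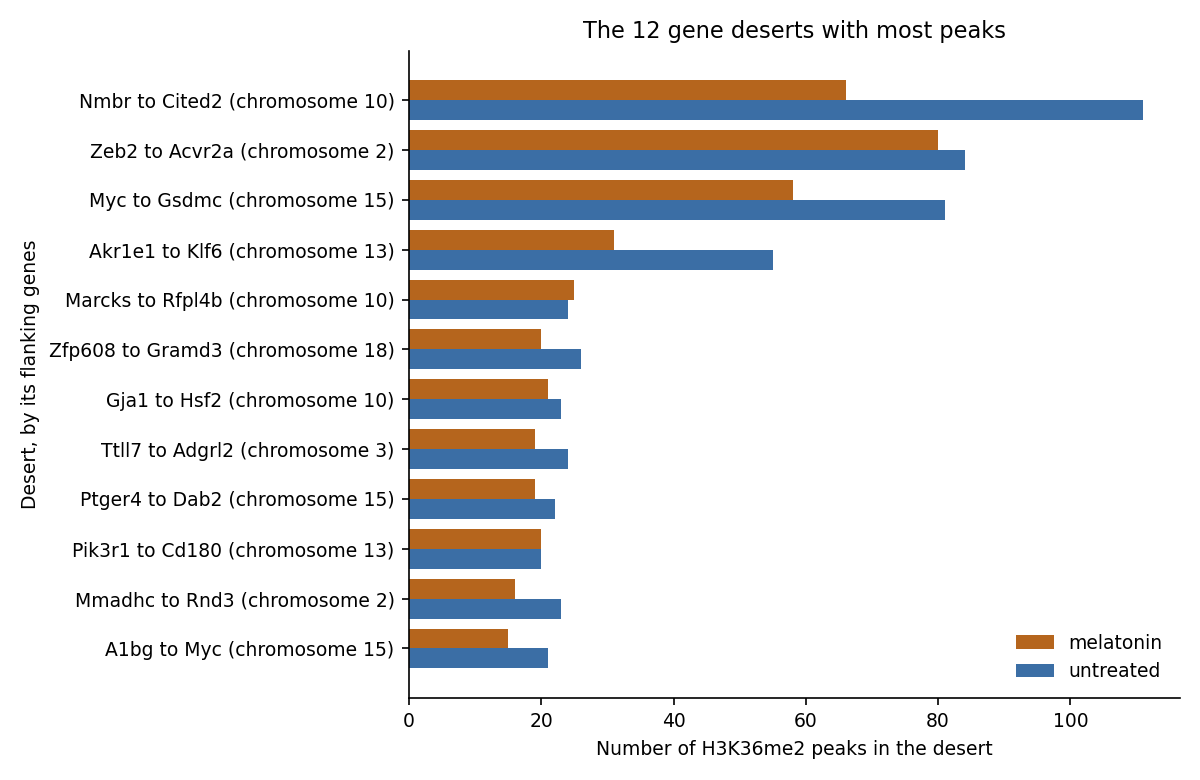
Number of H3K36me2 peaks (x axis) in each of the 12 deserts with most peaks (y axis, named by their flanking protein-coding genes), melatonin above untreated. Nmbr to Cited2 has 66 melatonin and 111 untreated peaks, Zeb2 to Acvr2a 80 melatonin and 84 untreated, and Myc to Gsdmc 58 melatonin and 81 untreated.

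The 8 longest deserts were nearly empty, although the next in length, Zeb2 to Acvr2a, was among the richest. These 8 covered 30.3 Mb and held 9 melatonin and 16 untreated peaks, or 0.297 melatonin and 0.529 untreated per Mb. The longest of all, 4.14 Mb on chromosome 14 between the protocadherin genes Pcdh20 and Pcdh9, held 3 melatonin and 8 untreated peaks. Those between Olfm4 and Pcdh17, Cntnap5b and Cdh20, and Tenm3 and Aga held 0 peaks in either list over 4.02, 3.88 and 3.59 Mb. A count of 0 shows that no peak was called, not that the mark was absent. Celf4 to Pik3c3 held 2 melatonin and 0 untreated peaks, and Slc39a10 to Tmeff2 held 1 melatonin and 0 untreated. Lrrc4c to Iftap held 3 melatonin and 5 untreated, and Dsel to Cntnap5a held 0 melatonin and 3 untreated. Protocadherins, cadherins, teneurins and contactin-associated proteins are adhesion molecules best known from neurons.

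Density was lower in longer deserts in each library. Deserts under 0.25 Mb held 4.55 melatonin peaks per Mb (3.86 to 5.33) and 5.82 untreated (5.04 to 6.7). Those of 0.5 to 1 Mb held 3.32 melatonin (2.99 to 3.67) and 4.55 untreated (4.16 to 4.96), and those over 2 Mb held 1.3 melatonin (1.14 to 1.49) and 1.99 untreated (1.79 to 2.22). The ratio of melatonin to untreated was 0.781 (0.628 to 0.969) in the shortest class and 0.654 (0.549 to 0.777) in the longest, with overlapping intervals. A peak was nonetheless present in 40.3% of deserts over 2 Mb with melatonin and 41.9% without, against 21.9% of those under 0.25 Mb with melatonin and 25.2% without.

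Some deserts differed widely between the libraries, and those named here were picked for that difference. After Nmbr to Cited2, Akr1e1 to Klf6 and Myc to Gsdmc, the largest untreated excess was on chromosome 13 between Inhba, the gene of the activin A subunit, and Sugct. It held 7 melatonin and 25 untreated peaks in 0.426 Mb (ratio 0.28, 0.102 to 0.666). Bckdhb to Tent5a on chromosome 9 held 5 melatonin and 17 untreated in 0.796 Mb (ratio 0.294, 0.0848 to 0.831). Excesses with melatonin were smaller. Prl5a1 to Sox4 on chromosome 13, beside a SOX family transcription factor gene, held 13 melatonin and 5 untreated in 0.397 Mb (ratio 2.6, 0.87 to 9.31). Klf4 to Actl7b held 18 melatonin and 13 untreated, Camk1g to Plxna2 7 melatonin and 2 untreated, Fat4 to Intu 6 melatonin and 1 untreated, and Agtr1b to Tbl1xr1 20 melatonin and 16 untreated. In each of these 5 the interval of the ratio included 1. Set beside the 0.717 of all deserts, the intervals sort the named deserts otherwise. Those of Prl5a1 to Sox4 and Fat4 to Intu (0.728 to 276) lay above 0.717, and that of Inhba to Sugct lay below it. The intervals of the other deserts named here included 0.717. All were picked by these counts, so the intervals are a description.

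Once called, desert peaks and other peaks had like folds and tag counts, but the calling limits lay close under these values. A fold of at least 4 was required, and the tag threshold was 18 with melatonin and 17 without. The peak finder's tag score had a median of 19 with melatonin and 18 without, in deserts and elsewhere alike. Like medians so near a shared limit cannot show equal strength. The fold over input given by the authors was 5.22 at the median desert peak with melatonin (quartiles 4.47 and 6.56), against 5.09 at the other melatonin peaks. Without melatonin it was 4.91 at the median desert peak (quartiles 4.36 and 5.93), against 4.87 at the others. A fold of 6 or more was reached by 32.2% of melatonin desert peaks (29.5 to 34.9), against 30.1% of all melatonin peaks, and by 24.2% of untreated desert peaks (22.1 to 26.3), against 24.1% of all untreated peaks. The median of ChIP tags per 10000000 was 13.4 with melatonin and 13.6 without, in deserts and elsewhere alike. Input tags per kb, each on the scale of its own library pair, had a median of 3 with melatonin and 3.5 without, again the same in deserts and elsewhere. The smallest width of 1000 bp was held by 79.4% of melatonin and 78.7% of untreated desert peaks.

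Desert peaks overlapped between the libraries more often than other peaks. Of melatonin desert peaks 128 (10.6%, exact interval 8.93 to 12.5) shared at least 1 bp with an untreated peak, against 6.12% of all melatonin peaks and 5.28% (4.75 to 5.85) of those outside deserts. Of untreated desert peaks 128 (7.61%, 6.39 to 8.99) were overlapped, against 5.6% of all untreated peaks and 5.09% (4.57 to 5.64) outside deserts. Peaks outside deserts include those in gene bodies, at 3.55% melatonin and 3.38% untreated. The shares were 7.02% melatonin and 6.93% untreated at 50 to 100 kb, and 6.89% and 6.03% at 100 to 200 kb. Inside deserts they were 9.01% and 7.06% at 200 to 300 kb, and 9.15% and 6.49% at 300 to 500 kb. The untreated shares just inside deserts were thus near those just outside. Farther out the shares were higher, at 11.5% melatonin and 8.24% untreated from 500 to 750 kb. From 750 to 1000 kb they were 20% of 60 melatonin and 12.4% of 97 untreated peaks. Beyond 1000 kb they were 20% of 65 melatonin and 10.8% of 120 untreated peaks. The overlap in deserts formed 128 pairs with a median of 696 bp in common. They lay in 49 deserts, and 58.6% of them in the richest 12, with 18 in Myc to Gsdmc, 15 in Nmbr to Cited2 and 12 in Zeb2 to Acvr2a.

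Local crowding moved with this overlap. A melatonin desert peak had a median of 11 untreated peaks within 250 kb, not counting any that it overlapped, against 4 for other melatonin peaks. An untreated desert peak had a median of 8 melatonin peaks, against 4 for other untreated peaks. Among melatonin peaks with 6 to 10 such neighbours, 5.91% in deserts (3.18 to 9.89) and 5.63% elsewhere (4.51 to 6.94) were overlapped. Among untreated peaks with 6 to 10, the shares were 6.05% in deserts (3.68 to 9.29) and 6.19% elsewhere (5.08 to 7.46). Desert and other peaks of like crowding thus did not differ beyond counting error there. With fewer neighbours the desert shares were the lower ones, with overlapping intervals. With 1 to 2 they were 0.847% against 3.23% in the melatonin list and 1.43% against 3.53% in the untreated list. With 3 to 5 they were 4.17% against 5.26% in the melatonin list and 2.92% against 4.8% in the untreated list. With 11 to 20 neighbours the melatonin shares were 12.1% in deserts (8.84 to 16) and 10.2% elsewhere (8.11 to 12.5), and the untreated shares were 14.7% in deserts (11.7 to 18.1) and 8.39% elsewhere (6.48 to 10.6). Of the 12 pairs of shares, 6 per library, this untreated pair was the only one whose intervals did not overlap. Without a neighbour, 0 of 50 melatonin desert peaks (0 to 7.11%) and 1 of 139 untreated desert peaks (0.0182 to 3.94%) were overlapped.

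**Figure D5:**
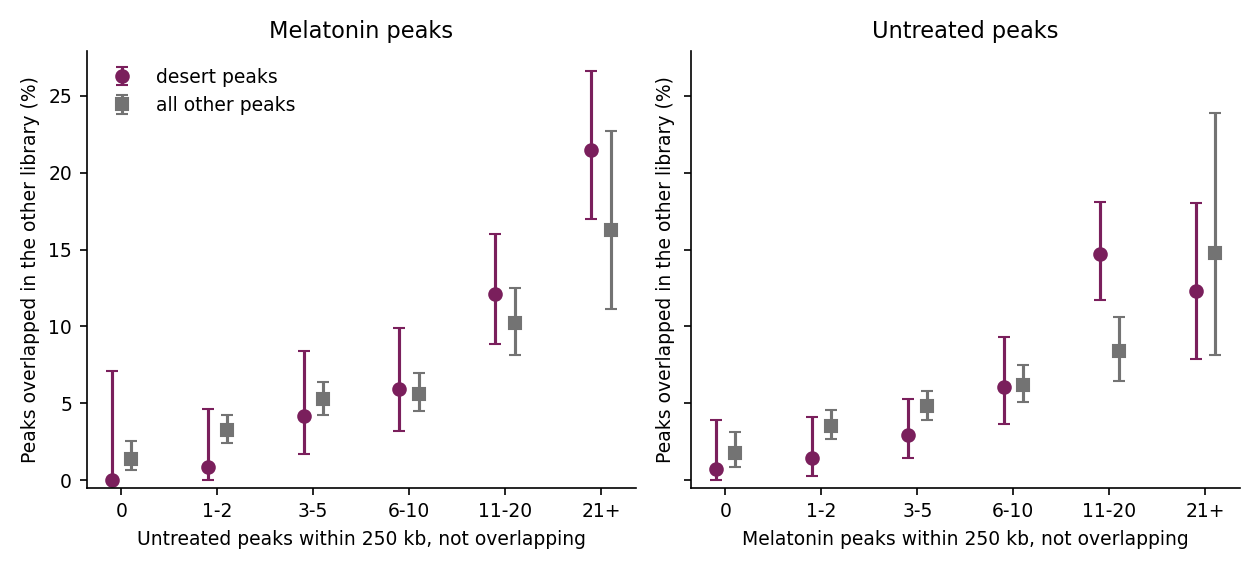
Share of peaks overlapped by a peak of the other library (y axis, percent) by the number of that library's peaks within 250 kb that do not overlap (x axis), for desert peaks and all other peaks, melatonin list left and untreated list right; bars are 95% exact binomial intervals. Among melatonin desert peaks the share rises to 21.5% with 21 or more neighbours, and among untreated desert peaks it is 14.7% with 11 to 20 and 12.3% with 21 or more.

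The 10 overlapping desert pairs with the highest folds in both lists, ranked by mean percentile of fold, include 1 of a tied pair for the last place, and the other of the tie lay in Nmbr to Cited2. The first lay on chromosome 10 between Gja1 and Hsf2, where the melatonin peak at 56972779 to 56974093 had a fold of 8.7 and the untreated peak at 56973149 to 56974149 a fold of 8.33. At Akr1e1 to Klf6 the folds were 8.6 with melatonin and 7.48 without. Another 7 pairs lay in the deserts Csnk1g3 to Zfp608, Nmbr to Cited2, Pcsk1 to Ell2, Pik3r1 to Cd180, Agtr1b to Tbl1xr1, Rasgrp1 to Thbs1 and Triqk to Runx1t1, with folds of 5.98 to 43.5 with melatonin and 5.39 to 8.17 without. Overlapped desert peaks had slightly lower folds than the other desert peaks, with medians of 5.05 against 5.22 in the melatonin list and 4.86 against 4.91 in the untreated list. Their tags per 10000000 were slightly higher, with medians of 13.8 against 13.4 in the melatonin list and 14.4 against 13.6 in the untreated list.

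The highest folds of all rested on almost no input. In the melatonin list they were 43.5 at Agtr1b to Tbl1xr1, 42.6 at Man1a to Tbc1d32, 34.8 at Kcnrg to Dleu7, 33.9 at Gm765 to Foxp1, 31.3 at Rasgrp1 to Thbs1 and 30.4 at Trib2 to Lpin1. Each of these 6 had 0.5 input tags and 15.2 to 21.7 ChIP tags. In the untreated list the 3 highest, at 0.4 input tags, were 46.1 at Trib2 to Lpin1 and 43.6 at both Pex2 to 1700008P02Rik and Kif2b to Car10. Next came 25.6 at Cd109 to Col12a1, 23.1 at Man1a to Tbc1d32 and 22.4 at Sema3d to Sema3a, at 0.8 input tags. The deserts Man1a to Tbc1d32 and Trib2 to Lpin1 thus appear in both lists, with peaks at different positions. An input count of 1 tag or fewer lay under 4.15% of melatonin desert peaks (3.09 to 5.43) and 1.01% of untreated ones (0.59 to 1.61), close to the 4.5% of other melatonin peaks and 0.898% of other untreated peaks.

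The widest desert regions spanned a few kb at most. In the melatonin list a region of 2539 bp between Mc2r and Tcf4, an E-protein transcription factor gene, had 38.8 tags per 10000000. Those of 2227 bp at Gja1 to Hsf2 and 2217 bp at Mmadhc to Rnd3 followed, and all 3 were overlapped by an untreated peak. In the untreated list a region of 4345 bp between Ttll7 and Adgrl2 had 57.6 tags per 10000000 and was overlapped by a melatonin peak. The next untreated regions, 3140 bp at Akr1e1 to Klf6 and 2637 bp at Gja1 to Hsf2, were not overlapped.

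Most desert peaks lay outside any annotated gene. Bodies of noncoding genes or pseudogenes held 199 melatonin desert peaks (16.5%, 14.4 to 18.7) and 257 untreated ones (15.3%, 13.6 to 17.1), while such genes cover 10.6% of desert sequence. Nearer to protein-coding genes, 21% of melatonin and 19.7% of untreated intergenic peaks lay in such bodies. Desert peaks touched 236 of these genes, of which 211 are long noncoding RNAs (lncRNAs). Melatonin peaks touched 140, untreated peaks 166, and 70 were touched in both lists. The number of such genes in deserts is not given here, so these counts cannot be read as shares. Gm20125, between Nmbr and Cited2, held 5 melatonin and 13 untreated peaks over its 145 kb. The lncRNA 2610307P16Rik beside Sox4 held 8 melatonin and 5 untreated peaks, and Gm13481, between Zeb2 and Acvr2a, held 6 in each. Gm30382 beside Adgrl2 and Gm35111, between Tmem167 and Atp6ap1l, each held 3 melatonin and 6 untreated peaks. 5430437J10Rik, between Ptger4 and Dab2, and Gm20740, between Myc and Gsdmc, each held 4 in each library. Rnls on chromosome 19, which the gene table lists as a transcribed pseudogene, held 7 melatonin and 5 untreated peaks, which count as desert peaks by that listing alone. Were genes of any type to bound a desert, 63 melatonin and 109 untreated peaks would remain.

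Many deserts beside developmental regulators and signals held a peak. Of 58 developmental transcription factor genes 46 flanked a desert, and of their 54 deserts 22 (40.7%) held a melatonin peak and 24 (44.4%) an untreated peak, against 30.3% with a melatonin peak and 33.6% with an untreated peak among all 809 deserts. The exact intervals of the list's shares, 27.6 to 55% with melatonin and 30.9 to 58.6% without, include those of all deserts. After Zeb2, most peaks of this list lay beside Sox4 (13 melatonin, 5 untreated), Zfhx4 (3 melatonin, 12 untreated) and Lmo4 (5 melatonin, 9 untreated). Of 34 secreted signal and guidance genes 16 flanked a desert, and of their 18 deserts 11 (61.1%, 35.7 to 82.7) held a melatonin peak and 13 (72.2%, 46.5 to 90.3) an untreated one. These held 46 melatonin and 99 untreated peaks. Inhba had 7 melatonin and 25 untreated, the ephrin genes Efna5 and Efnb2 had 8 melatonin and 18 untreated each, and Slit2, which encodes an axon repellent, had 4 melatonin and 14 untreated. Density was 3.76 melatonin and 8.09 untreated peaks per Mb beside the signals and 4.37 melatonin and 5.11 untreated beside the transcription factors, against 2.33 melatonin and 3.25 untreated over all deserts. The Zeb2 to Acvr2a desert alone gave 80 of the 135 melatonin and 84 of the 158 untreated peaks of the transcription factor list. Without it the density beside the transcription factors was 1.99 melatonin and 2.68 untreated peaks per Mb, below that of all deserts. Beside the signals it was 3.3 melatonin and 6.26 untreated without the Inhba desert. Leaving out these deserts was chosen after seeing the data.

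Deserts beside adhesion genes were long and sparse. The 28 deserts of 20 cadherin and protocadherin genes spanned 53.3 Mb and held 27 melatonin and 57 untreated peaks, or 0.507 melatonin and 1.07 untreated per Mb. All deserts over 2 Mb, whatever their flanking genes, held 1.3 melatonin and 1.99 untreated peaks per Mb. A peak was present in 11 of the 28 (39.3%, exact interval 21.5 to 59.4) with melatonin and 13 (46.4%, 27.5 to 66.1) without. These intervals include the shares of all deserts, 30.3% with melatonin and 33.6% without. Cdh11, which encodes a cadherin of osteoblasts and mesenchyme, had 9 melatonin and 13 untreated peaks in the desert toward Cdh5. The desert from Pcdh18 to Slc7a11 had 3 melatonin and 9 untreated peaks, and that from Cdh2, the N-cadherin gene, to Dsc3 had 3 melatonin and 8 untreated. The 47 deserts of 33 neuronal adhesion and guidance receptor genes held 62 melatonin and 76 untreated peaks, or 0.954 melatonin and 1.17 untreated per Mb. Of these deserts, 13 (27.7%, 15.6 to 42.6) had a melatonin peak and 12 (25.5%, 13.9 to 40.3) an untreated one. Here too the intervals include the shares of all deserts. Ttll7 to Adgrl2 alone gave 19 of the 62 melatonin and 24 of the 76 untreated peaks. Without it the density was 0.677 melatonin and 0.818 untreated peaks per Mb, an omission chosen after seeing the data. After Adgrl2, most peaks lay beside the ephrin receptor gene Epha7 (6 melatonin, 12 untreated, toward Map3k7), the teneurin gene Tenm2 (4 melatonin, 5 untreated) and Lrrc4c (3 melatonin, 5 untreated).

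Few deserts lay beside bone, niche and cartilage genes, so their shares have wide exact intervals, to be set beside the 30.3% of all deserts with a melatonin peak and the 33.6% with an untreated one. Of 27 osteoblast and bone matrix genes Msx2, Bmp2, Col1a2, Fgfr2 and Phex flanked a desert. Their 6 deserts spanned 2.2 Mb and held 0 melatonin peaks and 1 untreated peak, beside the homeobox gene Msx2, and the exact interval of 0 of 6 deserts reaches 45.9%. Of 20 stromal progenitor and niche genes 5 flanked a desert, and 5 of their 6 deserts (83.3%, 35.9 to 99.6) had a peak in each library, with 15 peaks in each. Cxcl12, which encodes the chemokine that retains blood stem cells in marrow, had 9 melatonin and 6 untreated peaks in the 0.259 Mb toward Zfp637. Il7, the interleukin 7 gene, had 2 melatonin and 4 untreated, Nt5e, which encodes the surface marker CD73, had 1 melatonin and 3 untreated, and Angpt1, the angiopoietin 1 gene, had 2 melatonin and 1 untreated. Of 14 chondrocyte genes 5 flanked a desert, and of their 7 deserts 1 (14.3%, 0.361 to 57.9) had a melatonin peak and 4 (57.1%, 18.4 to 90.1) an untreated one. Sox9, the master regulator of cartilage, had 4 melatonin and 8 untreated peaks in the desert toward Gm11677, and Mef2c had 0 melatonin and 5 untreated. Some genes stand in several lists, and a desert has a gene on each side.

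Desert peaks reached far from genes. Their distance to the nearest protein-coding gene had a median of 353 kb with melatonin and 359 kb without. The farthest melatonin peak lay 1719 kb from Pcdh20, at 90190522 to 90191522 on chromosome 14. The next 4 lay in the deserts Slc10a2 to Efnb2 (1695 and 1658 kb), Pabpc4l to Pcdh18 (1620 kb) and Celf4 to Pik3c3 (1607 kb). The farthest untreated peak lay 2250 kb from Pcdh9 in the Pcdh20 to Pcdh9 desert, at 90762905 to 90763905, followed by others of that desert at 1799 and 1635 kb. Untreated peaks at Slc10a2 to Efnb2 and at Hace1 to Grik2 lay 1703 and 1634 kb from a gene. At the other end, the members nearest the limit lay 200.1 kb from a gene with melatonin and 200.2 kb without. There were 52 melatonin and 68 untreated members between 200 and 210 kb, with median folds of 5.22 with melatonin and 4.86 without. Just outside, between 190 and 200 kb, lay 52 melatonin and 77 untreated peaks, with median folds of 5.09 with melatonin and 5.13 without.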

How the data were processed

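The files are 2 peak lists, 1 per ChIP library, and the input libraries entered only through the peak calls. The names of the deposited lists carry the input libraries' numbers, whereas their headers give the ChIP libraries as the source of the peaks. The headers were followed. Per the file headers, peaks were called with HOMER findPeaks in histone style (windows of 1000 bp, at least 4 fold over the matched input, Poisson p of 0.0001 over input, local filter off), each library alone. Picard 1.126, BWA 0.7.13, MACS2 2.1.0 and the build mm39 stand in the submitters' processing notes. Peaks avoid gene bodies, and when each list was shifted by up to 500 kb against the GRCm38.p6 gene table, the fewest midpoints fell in genes with no shift. Coordinates were therefore taken as GRCm38. The lists were not set against an mm39 gene table, so the build is an inference on which every desert assignment rests.

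The deposited tag counts are a signal, as ChIP tags per 10000000 total tags or as tags with the deeper library of a pair scaled down, per the file headers. The fold is the authors' ratio of ChIP to input tags, and the deposited score and p-value are the peak finder's own, the p-value without adjustment.

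Distances, desert lengths and overlaps (1 bp or more) were computed with Python 3.11.15, pandas 2.3.3 and scipy 1.17.1 and tested on simulated data. Intervals are 95% exact Poisson or binomial intervals. Deserts are named by their flanking protein-coding genes: the 12 with most peaks, the 8 longest and the 5 with the largest excess each way. Single peaks named are, per list, the 6 of highest fold, the 5 farthest and the 3 widest (the last chosen after their values were seen), and the 10 overlapping pairs of highest mean fold percentile, of which 1 is not reported here. Noncoding genes named are the 8 with most desert peaks, and list genes are up to 4 per list with most peaks, beside those of counts of 5 or fewer. The sequences were chosen after their values were seen. The members, lists and rules were chosen with earlier results of these data known.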

Additional observations from a re-analysis of the deposited data

How the results depend on the processing

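No paired analysis was possible because each condition had 1 ChIP library. A limit of 100 kb gave desert shares of 27.5% with melatonin and 32.6% without, densities of 2.87 melatonin and 3.69 untreated peaks per Mb and a ratio of 0.778. A limit of 500 kb gave shares of 4.22% with melatonin and 5.79% without, densities of 1.41 melatonin and 2.1 untreated, and overlaps of 14.8% melatonin and 9.71% untreated. With genes of any type as borders the shares were 0.818% melatonin and 1.3% untreated, the densities 0.755 melatonin and 1.31 untreated, the untreated overlap 5.5%, the median folds 5.02 melatonin and 4.83 untreated and the ratio 0.578. At a fold of 6 or more the melatonin share was 16.7%, the densities 0.751 melatonin and 0.786 untreated, the overlaps 2.58% melatonin and 2.46% untreated, the median folds 7.83 melatonin and 7.2 untreated and the ratio 0.956, and 7 of the richest 12 deserts stayed among the 12. With lists of equal size by p, the untreated density was 2.97, its median fold 5.13 and the ratio 0.786. With 50% of that size, the densities were 1.19 melatonin and 1.56 untreated, the overlaps 6.5% melatonin and 4.97% untreated and the median folds 6.43 melatonin and 5.93 untreated. Peaks of the smallest width gave densities of 1.85 melatonin and 2.56 untreated, overlaps of 6.89% melatonin and 5.06% untreated and a melatonin median fold of 5.07. Without chromosome 10 the shares were 14.8% melatonin and 19.1% untreated and the densities 2.07 melatonin and 2.9 untreated. Overlap of 50% of either peak came to 6.72% of melatonin and 4.82% of untreated desert peaks, and a gap of up to 1 kb to 16.3% melatonin and 12% untreated. At 14 or more tags per 10000000, chosen after seeing the data, the densities were 0.904 melatonin and 1.56 untreated, the overlaps 8.35% melatonin and 4.83% untreated and the ratio 0.579. Ranked by peaks per Mb, 3 of the richest 12 deserts stayed among the 12. Stricter lists hold fewer peaks, which lowers density by construction, and the cause of the other shifts was not tested. A p of 1e-05 or less, predicted genes left out, chromosome ends included and the nearer flanking gene alone moved none of the values they were run on beyond its interval, or its count by over 1.5 times. Library depth limits which weak regions could be called.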

Other observations

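Desert peaks lay closer to the next peak of their list than other peaks did. The median distance from a desert peak to the next peak of its library was 21.2 kb with melatonin and 13.9 kb without, against 29.7 kb with melatonin and 27 kb without for the other peaks. Another peak lay within 10 kb of 31.7% of melatonin desert peaks (29.1 to 34.4), against 25.5% of the other melatonin peaks (24.4 to 26.5). Without melatonin it did so for 41.2% of desert peaks (38.8 to 43.6), against 27.7% of the others (26.7 to 28.8). A gap of over 250 kb to the next peak was found for 6.55% of melatonin and 5% of untreated desert peaks, against 11% of melatonin and 10.1% of untreated peaks elsewhere. The lncRNA Gm19303, in the desert between Trps1 and Eif3h on chromosome 15, held 0 melatonin and 7 untreated peaks over 164 kb, while the whole desert held 9 melatonin and 13 untreated. It was chosen after its values were seen.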
